A study of Homo sapiens with 6 samples.

Results

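The mitochondrial genome of human cells is a small circle that encodes 13 protein-coding mRNAs, 2 ribosomal RNAs and 22 transfer RNAs. The deposited table of 58395 genes lists all 37 of them under symbols that begin with MT-, and these symbols set which genes belong to the group described here. Nuclear genes are named beside them. The group and the nuclear lists were chosen with earlier results of these data known. RNA had been sequenced from 786-O cells, an established human kidney cancer line of clear cell origin without working VHL. CRISPR/Cas9 had been directed at PLOD2, the gene of a collagen lysyl hydroxylase, in 3 libraries (sgPLOD2), and 3 others carried a control guide (sgControl). Both groups were grown in RPMI-1640 with fetal bovine serum, and the title sets the work within a search for ways to make sarcomatoid renal carcinoma differentiate. The labels do not say whether either group was a clone or a pool, or whether each replicate was its own culture. The p-values therefore refer to the spread of these libraries alone, part or all of which may be technical.

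Mitochondrial DNA is transcribed from both strands into long precursors by the polymerase POLRMT with the factors TFAM and TFB2M. Transfer RNAs sit between most of the mRNAs and rRNAs, and their excision by RNase P and ELAC2 frees the neighbouring RNAs. All 13 proteins are core subunits of complexes I, III and IV of the respiratory chain or of complex V, the ATP synthase. The 2 rRNAs form the cores of the mitochondrial ribosome, whose proteins are made in the cytosol from nuclear genes. Levels of single transcripts from 1 precursor can differ, since each mature RNA has its own stability.

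The targeted gene had 26.8, 25.7 and 21.5 FPKM (fragments per kilobase of the gene, scaled to the mapped total of the library) in sgControl replicates 1 to 3. PLOD2 had 5.98, 10.1 and 6.64 FPKM in the sgPLOD2 libraries, all below the controls (limma adjusted p = 0.000509; 2-sided exact permutation p = 0.1, the smallest that 3 against 3 libraries allow). Summed over all genes, FPKM ran from 229485 to 268612 per library, and between 9874 and 10649 genes reached 1 FPKM. Renal and epithelial markers were present, with mean levels of 28.0 and 24.0 FPKM for PAX8 and 102 and 111 FPKM for KRT8 in sgControl and sgPLOD2. Of 4 immune, 3 endothelial and 5 fibroblast markers, only COL1A1 averaged at least 1 FPKM over the 6 libraries. The immune markers summed to 0.105 to 0.157 FPKM in sgControl and 0.218 to 0.487 FPKM in sgPLOD2, and the endothelial ones to at most 0.00480 FPKM. The fibroblast markers summed to 0.691 to 0.975 FPKM in sgControl and 3.14 to 3.61 FPKM in sgPLOD2, and CD3E, VWF and DCN were listed at 0 in every library. The part of these sums in the results was not tested.

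One control library stood apart in its mitochondrial RNA. MT- genes took 12.9%, 7.50% and 6.96% of all FPKM in sgControl replicates 1 to 3 and 6.01%, 6.72% and 6.44% in sgPLOD2 replicates 1 to 3. The first control was therefore well above the other 5 libraries, while all 3 sgPLOD2 values lay below all 3 controls. sgControl replicate 1 held the highest of the 6 values for 36 of the 37 MT- genes, whereas it did so for 21.8% of all 10469 genes tested. The exception was MT-RNR1. On the log2(FPKM + 1) scale, MT- genes in that library exceeded the mean of the other controls by a median of 1.00 and by 0.17 to 1.64, and the median over all tested genes was 0.0016. Of the 89 tested genes that were higher there by at least 1 on this scale, 19 were mitochondrial. No MT- gene was displaced by that much in any of the other 5 libraries, though the lowest value in sgControl replicate 3 was -0.999. The comparison means of sgControl replicates 2 and 3 include replicate 1, which lowers their values (MT- medians of -0.41 and -0.61). The main counts and the mRNA and rRNA results are therefore given with and without sgControl replicate 1. In bulk RNA, less mitochondrial RNA per cell and fewer cells with much of it cannot be told apart.

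Most mitochondrially encoded RNAs were lower in sgPLOD2, with the 2 rRNAs and a group of tRNAs apart from the rest. All 37 genes reached a mean of 1 FPKM and were tested with limma on log2(FPKM + 1), with p-values adjusted over all 10469 genes. At an adjusted p under 0.05, 17 fell and 0 rose, against 23.5% lower and 29.5% higher over all genes tested. At an unadjusted p under 0.05 the counts were 21 lower and 0 higher, but the share of all genes at that threshold was not computed. These unadjusted counts can therefore not be set against all genes. The median log2 fold change, sgPLOD2 minus sgControl, was -0.83 over the 37 genes and 0.06 over all genes. In 24 of 37 genes every sgPLOD2 library lay below every control, and in 0 every one lay above. Over all genes tested these shares were 28.0% and 34.7%.

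Without sgControl replicate 1, the changes were smaller but the libraries spread less, and 22 fell and 2 rose. Of the 17 genes called lower with all libraries, 15 were called there too. The shares over all genes were 24.6% lower and 30.8% higher, and the medians were -0.41 for the 37 genes and 0.05 for all. Again 24 genes had every sgPLOD2 value below the 2 remaining controls, and 2 had every value above, against 33.1% and 39.8% of all genes. sgControl replicate 1 was singled out by its levels of these same MT- genes, so leaving it out tends to narrow their spread. The calls and p-values of MT- genes without it, here and below, are therefore no separate support. In the authors' deposited table, 25 of 37 were lower and 0 higher at an adjusted p under 0.05, against 17.0% and 18.5% of the genes with such a p. The number of falling genes was less stable to loss of an sgPLOD2 library, at 5 without replicate 1, 10 without replicate 2 and 5 without replicate 3. These are 13.5%, 27.0% and 13.5% of the MT- genes, against 19.8%, 18.3% and 18.9% of all genes called lower in the same fits. Without sgPLOD2 replicate 1 or 3 the share of MT- genes called lower was thus below that of all genes. MT-TP, MT-TI and MT-ND3 were called lower under each of the 18 alternatives run.

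**Figure D1:**
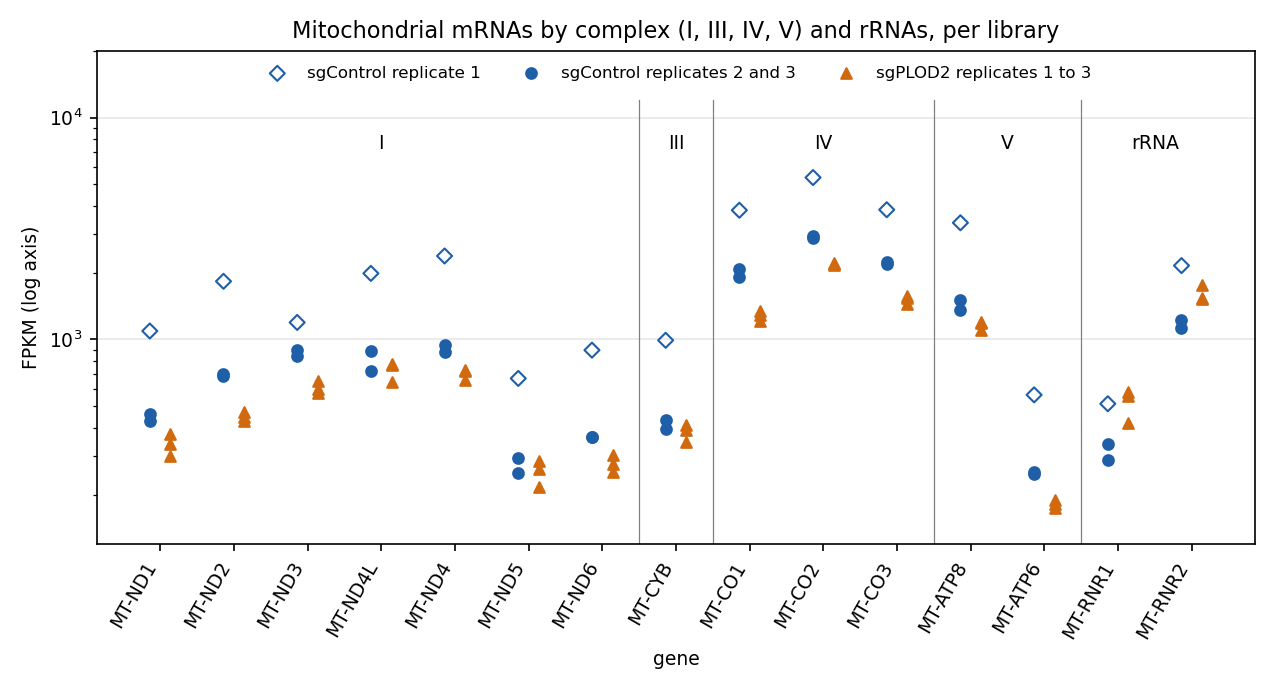
Levels in FPKM (log axis) of the 13 mitochondrial mRNAs, grouped by complex, and of the 2 rRNAs, with 1 symbol per library and no averaging. sgControl replicate 1 (open diamonds) is the highest library for every mRNA, and for the rRNAs the sgPLOD2 triangles sit above the other controls (filled circles).

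Complex IV, cytochrome c oxidase, hands electrons to oxygen, and its 3 catalytic-core subunits had the highest mRNA levels among the complexes. Each of the 3 fell. MT-CO1 had 3823, 2071 and 1917 FPKM in sgControl, against 1211, 1295 and 1343 FPKM in sgPLOD2 replicates 1 to 3. MT-CO2 had 5366, 2878 and 2934 FPKM in sgControl, against 2215, 2170 and 2181 FPKM in sgPLOD2. MT-CO3 had 3843, 2183 and 2235 FPKM in sgControl, against 1533, 1568 and 1444 FPKM in sgPLOD2. In each gene all sgPLOD2 libraries lay below all controls, and sgControl replicate 1 was far above its 2 mates.

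MT-CO1, the subunit with the heme-copper centre, fell by 0.95 ± 0.25 on the log2 scale (SE; limma adjusted p = 0.0167). Without sgControl replicate 1 it fell by 0.64 ± 0.08 (limma adjusted p = 0.00117), so that 49.3% of the control mean remained with that library and 64.4% without it. MT-CO2, which takes electrons from cytochrome c, fell by 0.70 ± 0.24 (limma adjusted p = 0.0396), or by 0.41 ± 0.06 without that library (0.00258). MT-CO3 fell by 0.81 ± 0.22 (limma adjusted p = 0.0174), or by 0.54 ± 0.07 without it (0.00134). The calls of MT-CO2 and MT-CO3 were lost without sgPLOD2 replicate 3, that of MT-CO1 without sgPLOD2 replicate 2, and MT-CO2 also without either other sgPLOD2 library, under quantile normalization and when scaled to the other genes. All 3 were lost with no filter on low values. Across all alternatives the adjusted p of MT-CO2 reached 0.385, that of MT-CO1 0.0614 and that of MT-CO3 0.0644.

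Complex I, NADH dehydrogenase, takes its 7 mitochondrially encoded subunits from the membrane arm that pumps protons. Of these, 2 fell with all libraries (MT-ND2 and MT-ND3), a share of 28.6% near the 23.5% of all genes, and 5 without sgControl replicate 1, or 71.4% against 24.6%. MT-ND3, a short subunit gene, had 1193, 838 and 895 FPKM in sgControl, against 596, 653 and 575 FPKM in sgPLOD2. Its libraries spread least among the mRNAs: the first control was 1.38 times the mean of the other 2. MT-ND3 fell by 0.67 ± 0.14 (SE, limma adjusted p = 0.00751), or by 0.51 ± 0.08 without that library (0.00308). MT-ND2 had 1829, 702 and 684 FPKM in sgControl, against 429, 470 and 448 FPKM in sgPLOD2. With all libraries it had the lowest remaining share of the 13 mRNAs, 41.9% of the control mean, but without sgControl replicate 1 MT-CO1 (64.4%) was below MT-ND2 (64.9%). It was also the mRNA most raised in sgControl replicate 1, at 2.64 times the other 2. MT-ND2 fell by 1.09 ± 0.36 (limma adjusted p = 0.0371), or by 0.62 ± 0.07 without that library (0.000915). Its call was lost without any 1 of the sgPLOD2 libraries, with no filter and under robust estimation.

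The other 5 complex I mRNAs were not called with all libraries. MT-ND1, which lies next to the quinone site, had 1092, 461 and 431 FPKM in sgControl, against 298, 377 and 338 FPKM in sgPLOD2. MT-ND4 had 2379, 940 and 876 FPKM in sgControl, against 654, 719 and 725 FPKM in sgPLOD2. MT-ND6, the single mRNA transcribed in the opposite direction to the other 12, had 896, 365 and 364 FPKM in sgControl, against 253, 302 and 276 FPKM in sgPLOD2. In these 3 genes the groups did not overlap. Their limma adjusted p was 0.0733, 0.0848 and 0.0726 with all libraries and 0.0211, 0.00871 and 0.0117 without sgControl replicate 1, where the log2 fold changes were -0.41, -0.38 and -0.40. They were also called with the first control kept and sgControl replicate 3 left out (limma adjusted p = 0.0429, 0.0466 and 0.0496). MT-ND5 had 668, 294 and 251 FPKM in sgControl, against 216, 284 and 260 FPKM in sgPLOD2, and its groups overlapped. MT-ND4L had 1985, 887 and 718 FPKM in sgControl, against 646, 770 and 772 FPKM in sgPLOD2, overlapping as well. Neither was called with all libraries (limma adjusted p = 0.224 and 0.204) or without the first control (0.512 and 0.392), where 92.9% and 90.9% of the control mean remained.

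Complex III, which passes electrons from ubiquinol to cytochrome c, takes a single subunit from mitochondrial DNA. The cytochrome b gene MT-CYB had 992, 433 and 395 FPKM in sgControl, against 344, 411 and 391 FPKM in sgPLOD2. The groups overlapped, and MT-CYB was not called with a log2 fold change of -0.54 ± 0.33 (SE, limma adjusted p = 0.204), or -0.12 ± 0.10 without sgControl replicate 1 (0.338). MT-ND5 and MT-CYB are neighbours at the end of the precursor that holds most genes, with MT-ND6 and a tRNA gene on the opposite strand between them.

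Complex V takes 2 subunits of its membrane-bound rotor-stator part from mitochondrial DNA. MT-ATP8 and MT-ATP6 are known to be read from a single mRNA, and their coding sequences share 46 bases, at chrM:8527-8572 on the plus strand of GRCh38 (22.2% of the 207 bases of MT-ATP8 and 6.75% of the 681 of MT-ATP6). The shared stretch is shown because reads in it belong to both genes. MT-ND4L and MT-ND4 form the other such pair, sharing 7 bases at chrM:10760-10766. In both lines the opening capitals are the start codon of the downstream gene and the closing capitals the stop codon of the upstream gene, read from GENCODE release 29 transcripts.
MT-ATP8 and MT-ATP6: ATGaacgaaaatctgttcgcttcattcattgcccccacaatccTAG
MT-ND4L and MT-ND4: ATGcTAA

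MT-ATP6, the proton-channel subunit, had 563, 248 and 252 FPKM in sgControl, against 175, 190 and 182 FPKM in sgPLOD2. MT-ATP8 had 3357, 1514 and 1351 FPKM in sgControl, against 1103, 1190 and 1195 FPKM in sgPLOD2. The groups did not overlap in either gene. MT-ATP6 fell by 0.84 ± 0.30 (SE, limma adjusted p = 0.0491), or by 0.45 ± 0.07 without sgControl replicate 1 (0.00281). With all libraries its call was lost under 10 of the 18 alternatives, each sgPLOD2 library left out among them. MT-ATP8 was called only without the first control or the third (limma adjusted p = 0.1002 with all libraries and 0.0224 without the first control, where it fell by 0.30 ± 0.08) and under quantile normalization. Although both lie on 1 mRNA, FPKM of MT-ATP8 was 5.81 ± 0.40 times that of MT-ATP6 in sgControl and 6.38 ± 0.16 times in sgPLOD2 (SD, n = 3 each). For MT-ND4L over MT-ND4 the ratio was near 1, at 0.866 ± 0.068 and 1.04 ± 0.046. How the authors' counting assigned reads of overlapping genes is not given in the sources used here. The copies in nuclear chromosomes described below also differed. MTATP6P1 averaged 265 FPKM in sgControl and 131 FPKM in sgPLOD2, and MTATP8P1 0.375 and 0.151 FPKM. How far reads shared with such copies enter the ratio of MT-ATP8 to MT-ATP6 was not tested.

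The make-up of the mRNA pool was compared apart from its size. Complex IV mRNAs made up 50.5% ± 3.49 of the summed mRNA FPKM in sgControl and 49.6% ± 1.51 in sgPLOD2 (SD, n = 3 each), complex I 33.4% ± 2.21 and 33.3% ± 1.22, and complex V 12.9% ± 0.99 and 13.4% ± 0.21. With all libraries these shares overlapped between groups. Without sgControl replicate 1, the control shares of complex IV were 51.6% and 53.3%, above the 51.3%, 48.4% and 49.0% of sgPLOD2, and those of complex V were 12.8% and 12.1%, below 13.2%, 13.3% and 13.6%. Some single genes differed in their share. MT-ND2 took 6.54%, 5.08% and 5.14% of it in sgControl and 4.44%, 4.52% and 4.42% in sgPLOD2. MT-CO1 took 13.7%, 15.0% and 14.4% in sgControl and 12.5%, 12.5% and 13.3% in sgPLOD2. MT-CYB took 3.54%, 3.13% and 2.97% in sgControl and 3.55%, 3.95% and 3.86% in sgPLOD2. For these 3 genes the shares did not overlap between groups, lower in sgPLOD2 for MT-ND2 and MT-CO1 and higher for MT-CYB, although for MT-CYB the nearest libraries almost touched. As shares of one pool these values are tied to each other and carry no test.

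The ribosomal RNAs did not share the direction of the mRNAs. MT-RNR2, the 16S rRNA of the large mitochondrial ribosomal subunit, had 2153, 1221 and 1129 FPKM in sgControl, against 1535, 1767 and 1515 FPKM in sgPLOD2. MT-RNR1, the 12S rRNA of the small subunit, had 513, 338 and 287 FPKM in sgControl, against 577, 557 and 421 FPKM in sgPLOD2. With all libraries the groups overlapped in both, through sgControl replicate 1 alone. The log2 fold changes were 0.16 ± 0.24 for MT-RNR2 and 0.48 ± 0.23 for MT-RNR1 (SE, limma adjusted p = 0.605 and 0.114). Without that library both rose, MT-RNR2 by 0.45 ± 0.09 (limma adjusted p = 0.00794) and MT-RNR1 by 0.72 ± 0.16 (0.00896). They were the 2 MT- genes called higher there. With all libraries MT-RNR1 was called higher under TPM scaling, quantile normalization and the replicate block, and MT-RNR2 under quantile normalization. Without sgControl replicate 3 instead, the log2 fold change of MT-RNR2 was -0.02.

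A ratio of 2 genes within a library does not depend on how libraries are scaled. MT-RNR2 over MT-CO1 was 0.563, 0.589 and 0.589 in sgControl and 1.27, 1.36 and 1.13 in sgPLOD2, a 2.16-fold higher mean. sgControl replicate 1, with its high levels of both, had nearly the same ratio as its mates. MT-RNR1 over MT-CO1 was 0.134, 0.163 and 0.150 in sgControl and 0.477, 0.430 and 0.313 in sgPLOD2. MT-RNR2 over MT-RNR1 was 4.19, 3.61 and 3.94 in sgControl and 2.66, 3.17 and 3.60 in sgPLOD2. None of these 3 ratios overlapped between groups, though for the last the nearest libraries almost touched. Of 6 gene ratios tested, the other 3 were MT-ND6 over MT-ND5 (1.34 ± 0.10 and 1.10 ± 0.061; SD, n = 3 each) and the pairs of overlapping genes above. Each gave a 2-sided exact permutation p of 0.1, the smallest this design allows, also after adjustment over the 6. MT-TP over MT-TT was computed but not tested (8.54, 6.54 and 6.10 in sgControl, 7.05, 4.05 and 8.59 in sgPLOD2). The same holds for MT-CO3 over MT-ATP6 (6.83, 8.80 and 8.87 in sgControl, 8.78, 8.26 and 7.92 in sgPLOD2). In both of these the groups overlapped. Only ratios without overlap were thus tested, which by itself fixes p at 0.1, so these p-values add no evidence.

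Weighted by gene length, which turns FPKM into relative numbers of fragments, rRNA made up 13.8%, 15.9% and 15.2% of mitochondrial fragments in sgControl. It made up 26.8%, 27.4% and 24.5% in sgPLOD2, with no overlap. mRNAs made up 85.2%, 82.7% and 83.3% in sgControl and 71.6%, 71.0% and 73.9% in sgPLOD2. MT-CO1 was the largest single source in sgControl at 22.0% ± 0.80, and MT-RNR2 in sgPLOD2 at 21.9% ± 1.03 (SD, n = 3 each). Whether rRNA was depleted or poly(A) RNA selected before sequencing is not given in the sources used here, and a difference in that step between groups cannot be told apart from a difference in the cells.

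**Figure D2:**
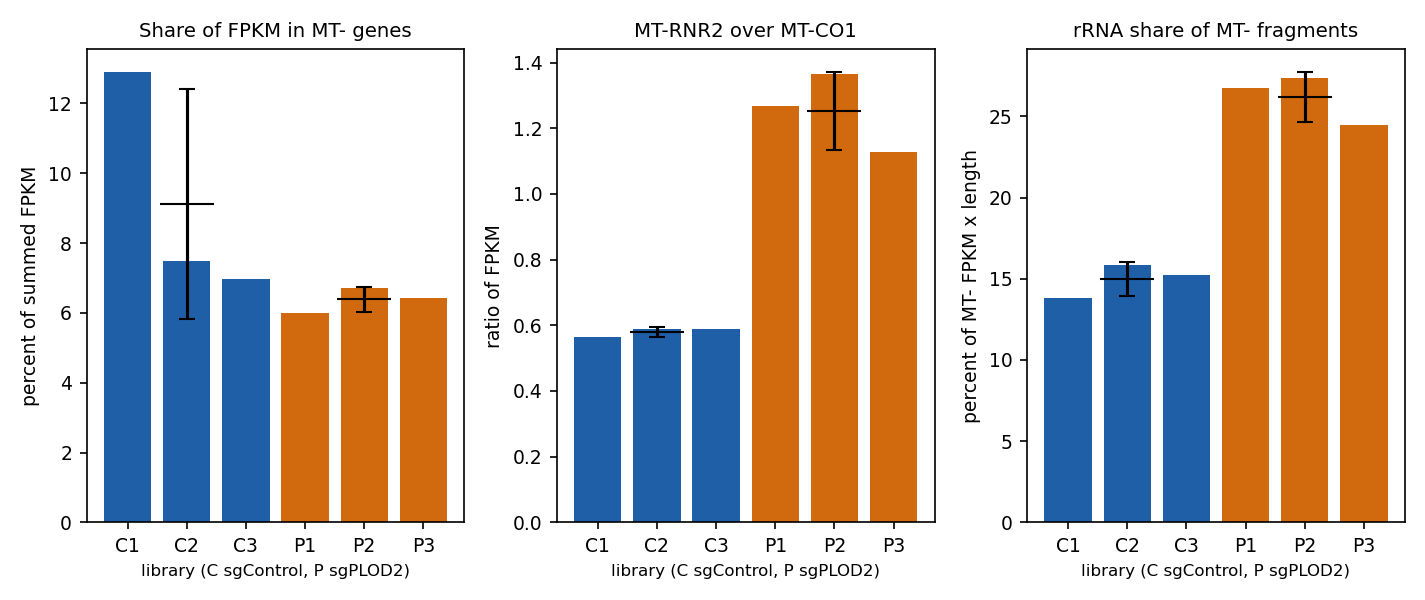
Bars give 1 value per library (C1 to C3 are sgControl replicates 1 to 3 and P1 to P3 sgPLOD2) for the share of summed FPKM in MT- genes, the ratio of MT-RNR2 to MT-CO1 FPKM and the rRNA share of length-weighted mitochondrial FPKM, with black lines for group mean ± SD (n = 3). C1 stands above the rest at 12.9% on the left, whereas its ratio (0.563) and rRNA share (13.8%) lie with the other controls and below every sgPLOD2 library.

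The 22 tRNA genes are 59 to 75 bases long, shorter than usual sequencing fragments, so their values may also count fragments of precursors and of neighbouring RNAs, and mature tRNA was not measured apart. Of these genes, 14 lie on the plus strand and 8 on the minus strand. Without a recorded strand setting, reads from both strands of 1 place cannot be told apart. Of the 22, 11 fell and 0 rose with all libraries, and 12 fell without sgControl replicate 1. Called with all libraries were 9 of 14 on the plus strand (64.3%) and 2 of 8 on the minus strand (25.0%), MT-TP and MT-TQ, so that the minus-strand share was near the 23.5% of all genes. Without sgControl replicate 1 it was 9 of 14 (64.3%) and 3 of 8 (37.5%), against 24.6% of all genes.

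Levels of tRNA genes spanned a wide range and 4 of them stood far above the rest. MT-TA, MT-TN, MT-TC and MT-TY lie side by side on the minus strand between MT-ND2 and MT-CO1, around the origin from which the light strand is replicated. Together they made up 79.1% ± 5.86 of tRNA FPKM in sgControl and 87.3% ± 1.47 in sgPLOD2 (SD, n = 3 each). Their sequences follow, 5′ to 3′ with the anticodon in capitals and taken from GENCODE release 29 (GRCh38), since they stand far above the other tRNA genes and none was called. MT-TP, also on the minus strand, and MT-TR, on the plus strand, are shown beside them as tRNA genes that fell.
MT-TA (alanine, chrM:5587-5655, minus strand): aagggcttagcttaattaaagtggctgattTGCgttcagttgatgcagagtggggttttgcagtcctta
MT-TN (asparagine, chrM:5657-5729, minus strand): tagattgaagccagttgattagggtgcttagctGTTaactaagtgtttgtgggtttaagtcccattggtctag
MT-TC (cysteine, chrM:5761-5826, minus strand): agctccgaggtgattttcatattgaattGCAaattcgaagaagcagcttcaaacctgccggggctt
MT-TY (tyrosine, chrM:5826-5891, minus strand): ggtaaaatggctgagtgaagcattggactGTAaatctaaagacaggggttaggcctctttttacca
MT-TP (proline, chrM:15956-16023, minus strand): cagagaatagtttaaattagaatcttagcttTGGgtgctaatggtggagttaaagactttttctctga
MT-TR (arginine, chrM:10405-10469, plus strand): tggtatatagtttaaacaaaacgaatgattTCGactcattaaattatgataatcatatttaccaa

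MT-TN had 923, 769 and 789 FPKM in sgControl, against 771, 780 and 800 FPKM in sgPLOD2, overlapping. MT-TA had 523, 430 and 433 FPKM in sgControl, against 430, 440 and 454 FPKM in sgPLOD2, overlapping as well. MT-TC had 833, 684 and 712 FPKM in sgControl, against 656, 665 and 682 FPKM in sgPLOD2, which left the groups just apart. MT-TY had 630, 478 and 478 FPKM in sgControl, against 408, 436 and 446 FPKM in sgPLOD2, also apart. None of the 4 was called (limma adjusted p = 0.554, 0.641, 0.242 and 0.0927 in the same order), with log2 fold changes of -0.07, -0.06, -0.15 and -0.29. The SE was 0.10, 0.10, 0.10 and 0.13, so falls as large as those of most mRNAs lay outside 2 SE for these genes. The sign was not stable: MT-TN and MT-TA were at or above 0 under TPM scaling, quantile normalization, scaling to the other genes and without sgControl replicate 1, and quantile normalization called MT-TN higher (0.21, limma adjusted p = 0.0188). Their rise in sgControl replicate 1 was small too, 1.19 to 1.32 times the mean of the other 2 controls for these 4 genes, where the 13 mRNAs had 1.38 to 2.64 times.

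MT-TP had 198, 126 and 133 FPKM in sgControl, against 82.4, 79.7 and 83.5 FPKM in sgPLOD2, the groups being well apart and the sgPLOD2 libraries close together. MT-TP fell by 0.86 ± 0.17 (SE, limma adjusted p = 0.00487), or by 0.66 ± 0.07 without sgControl replicate 1 (0.000696). MT-TI, the isoleucine tRNA gene next to MT-ND1, had 36.3, 17.9 and 18.2 FPKM in sgControl, against 7.64, 10.6 and 9.77 FPKM in sgPLOD2. It fell by 1.22 ± 0.27 (limma adjusted p = 0.00814), or by 0.89 ± 0.13 without that library (0.00219). MT-TR had 60.2, 23.5 and 22.2 FPKM in sgControl, against 11.6, 15.7 and 12.0 FPKM in sgPLOD2, and 37.1% of the control mean remained. That was the lowest of the 37 genes with all libraries, whereas without sgControl replicate 1 MT-TI (51.7%) and MT-TQ (54.1%) were below MT-TR (57.2%). MT-TR fell by 1.22 ± 0.36 (limma adjusted p = 0.0249), or by 0.77 ± 0.14 without that library (0.00418), and lost its call without sgPLOD2 replicate 1 or 3 and with no filter.

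Among the other tRNA genes, MT-TL2, MT-TS2 and MT-TH form a run between MT-ND4 and MT-ND5. Their control means were 35.3, 44.1 and 37.5 FPKM and their sgPLOD2 means 14.5, 18.6 and 17.2 FPKM, and each fell (limma adjusted p = 0.0240, 0.0280 and 0.0343). MT-TG, between MT-CO3 and MT-ND3, fell from 45.4 ± 24.1 to 19.7 ± 5.56 FPKM (SD, n = 3 each; limma adjusted p = 0.0354). MT-TM, MT-TQ, MT-TD and MT-TT fell as well, from means of 16.2, 6.87, 13.3 and 21.4 FPKM to 7.08, 2.70, 6.44 and 13.7 FPKM (limma adjusted p = 0.0262, 0.0188, 0.0411 and 0.0451). Without sgControl replicate 1, MT-TL2, MT-TS2, MT-TG, MT-TM, MT-TQ and MT-TD were called lower as well (limma adjusted p = 0.0231, 0.0392, 0.0358, 0.00356, 0.0115 and 0.0411). In MT-TH and MT-TT the groups overlapped through sgPLOD2 replicate 2 (25.1 and 19.7 FPKM), and both lost their calls without sgControl replicate 1. Each of these 8 genes lost its call under at least 1 other alternative, sgPLOD2 replicate 1 left out among them. MT-TL1, MT-TE and MT-TK were called only under some alternatives, with control means of 175, 60.3 and 7.70 FPKM and sgPLOD2 means of 78.4, 29.2 and 3.46 FPKM. MT-TL1, which directly follows MT-RNR2, was 3.13 times the mean of the other 2 controls in sgControl replicate 1 (320, 110 and 95.3 FPKM) and had 69.2, 87.4 and 78.6 FPKM in sgPLOD2. MT-TV, which lies between both rRNA genes, had means of 17.1 and 11.1 FPKM, and MT-TF, ahead of MT-RNR1, 10.9 and 8.66 FPKM. MT-TS1 had 3.28 and 1.49 FPKM and MT-TW 2.02 and 1.56 FPKM. MT-TV, MT-TF, MT-TS1 and MT-TW were not called with all libraries (limma adjusted p = 0.119, 0.327, 0.190 and 0.374), and their groups overlapped.

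**Figure D3:**
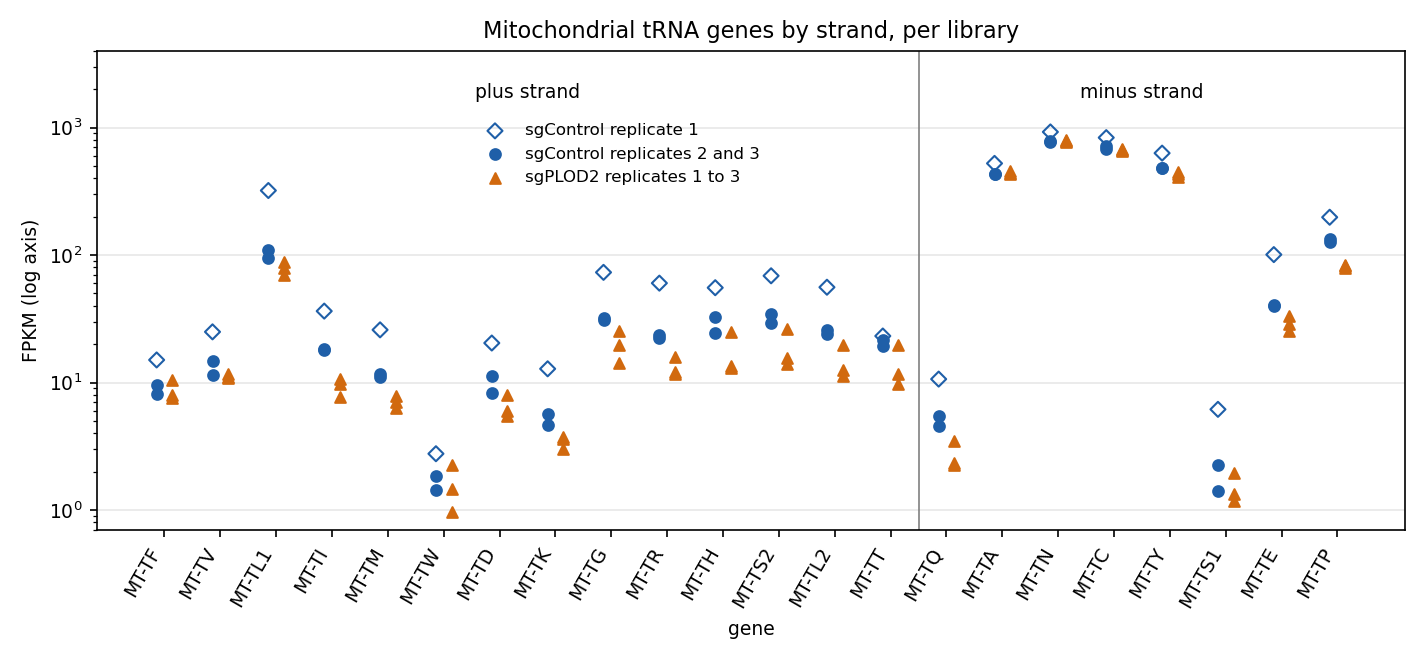
Levels in FPKM (log axis) of the 22 mitochondrial tRNA genes, ordered along the genome within each strand, with 1 symbol per library. MT-TA, MT-TN, MT-TC and MT-TY stand at 408 FPKM or more in every library with control and sgPLOD2 symbols close together, whereas for MT-TP and MT-TI all sgPLOD2 triangles lie below the controls.

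Along the genome and with all libraries, the genes before MT-TL1 and those around the light-strand origin had the smallest or positive log2 fold changes. The genes between and after them had larger negative ones. From MT-TF to MT-RNR2, log2 fold changes were -0.27, 0.48, -0.51 and 0.16 in gene order. From MT-TL1 to MT-ND2 the 6 values ran from -1.22 to -0.84. The next 5, from MT-TW to MT-TY, lay between -0.29 and -0.06, and the 22 from MT-CO1 to MT-TP between -1.22 and -0.54. Without sgControl replicate 1 the values of these last 22 genes lay between -0.79 and -0.11, nearest to 0 for MT-ND5, MT-CYB and MT-ND4L. From MT-TF to MT-RNR2 the values were then -0.04, 0.72, -0.21 and 0.45, and from MT-TW to MT-TY between -0.15 and 0.03. MT-TV and MT-TY thus lay further below 0 than MT-ND5 and MT-CYB, so these stretches overlapped.

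**Figure D4:**
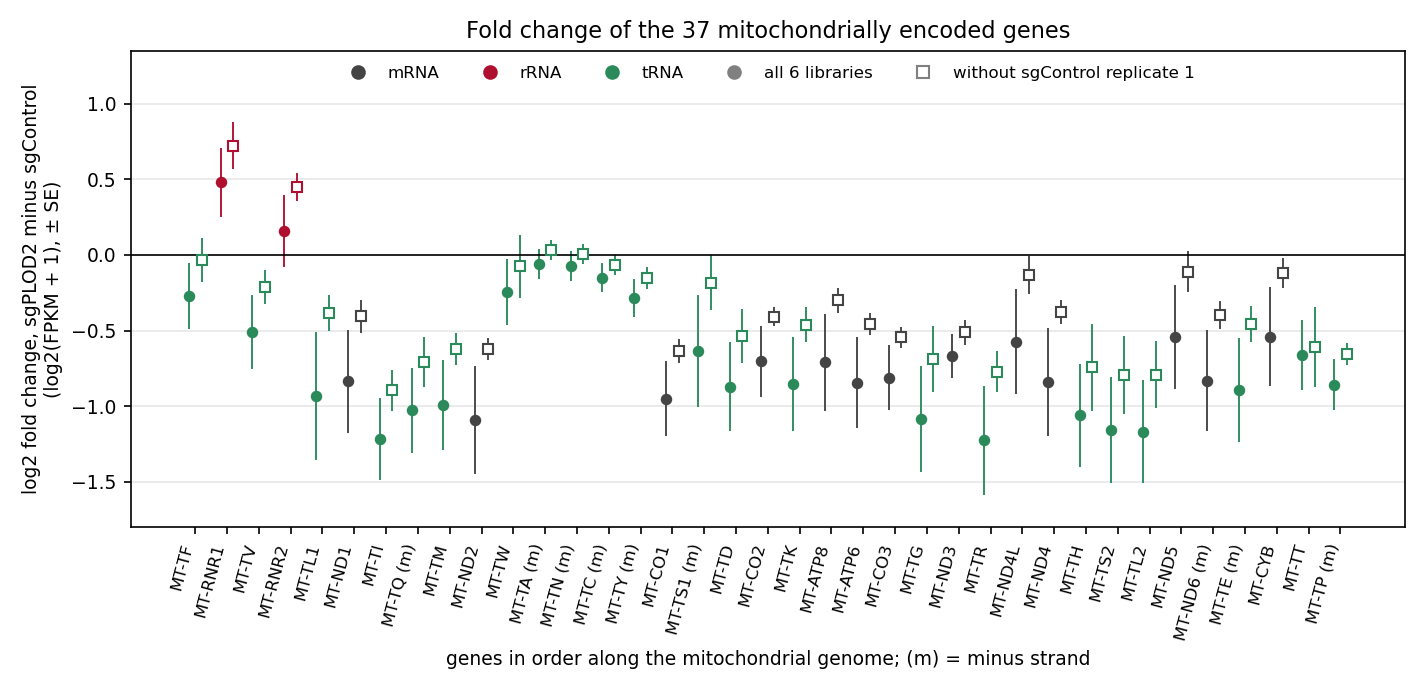
Log2 fold change ± SE (sgPLOD2 minus sgControl on log2(FPKM + 1), limma) for each of the 37 genes in genome order, with all 6 libraries (filled circles) and without sgControl replicate 1 (open squares). The rRNAs lie above 0 in both, MT-TA, MT-TN and MT-TC lie at 0 within 2 SE, and the 13 mRNAs lie below 0 in both, nearer to 0 and with shorter error bars once that library is left out.

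Other scalings of the libraries gave other counts. The MT- share given above is of summed FPKM, in which each gene is divided by its length, and in the authors' deposited table MT- genes held 1.83% of the summed mean normalized counts. When libraries were set to the same total of all other genes, 13 MT- genes fell and 0 rose, against 19.5% and 33.9% of all genes, and the median was -0.74. With that scaling and without sgControl replicate 1, 15 fell and both rRNAs rose, against 20.3% and 34.1% of all genes, and the median was -0.33. TPM scaling moved the median of all tested genes from 0.06 to 0.20, a shift of 0.14, and the median of the MT- genes there was -0.70. All 13 mRNAs stayed below 0 in each of the 18 alternatives. Over all genes tested, 55.7% of calls were higher as deposited, 66.8% under TPM, 63.4% when scaled to the other genes and 45.2% at a minimum of 5 FPKM.

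Copies of mitochondrial DNA that were inserted into nuclear chromosomes share sequence with these genes and can take their reads. The table lists 408 genes named as such copies, of which 38 had any signal and 3 averaged at least 1 FPKM. MTATP6P1 had 420, 192 and 184 FPKM in sgControl, against 130, 131 and 133 FPKM in sgPLOD2. MTND2P28 had 168, 72.3 and 69.0 FPKM in sgControl, against 45.9, 58.2 and 49.6 FPKM in sgPLOD2. MTCO1P12 had 83.4, 37.4 and 41.2 FPKM in sgControl, against 24.1, 23.0 and 26.6 FPKM in sgPLOD2. All 3 were high in sgControl replicate 1 and lower in every sgPLOD2 library, as MT-ATP6, MT-ND2 and MT-CO1 were. Reads shared between a copy and its original could have been split between them, so the values of these MT- genes are uncertain to that extent.

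With all libraries, nuclear genes for the same complexes did not share the median of the MT- genes. Without sgControl replicate 1, the MT- and nuclear medians were -0.40 and -0.09 for complex I and -0.54 and -0.17 for complex IV. They were -0.38 and 0.02 for complex V. For complex III they no longer differed in that way, at -0.12 for MT-CYB alone and -0.16 for the nuclear genes. The counts and medians that follow are with all libraries unless stated. Of the 37 nuclear complex I subunits tested, 12 fell and 6 rose, with a median of -0.09, where the 7 mitochondrial ones had -0.83. NDUFAB1, the acyl carrier subunit, fell from 38.7 ± 1.95 to 27.1 ± 1.26 FPKM, and the accessory subunit gene NDUFA9 rose from 6.70 ± 0.22 to 10.3 ± 0.58 FPKM (SD, n = 3 each; limma adjusted p = 0.00211 and 0.00165). Of 9 nuclear complex III subunits, 2 fell and 2 rose (median -0.16). The core subunit gene UQCRC1 rose from 62.6 ± 4.67 to 97.5 ± 5.77 FPKM and the iron-sulfur subunit gene UQCRFS1 from 24.4 ± 2.30 to 35.9 ± 2.51 FPKM (limma adjusted p = 0.00128 and 0.00355).

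Of 12 tested nuclear complex IV subunits, 2 fell and 0 rose (median -0.19, against -0.81 for the 3 mitochondrial ones). COX6C fell from 27.6 ± 1.87 to 21.0 ± 2.30 FPKM and COX4I1 from 47.0 ± 3.95 to 37.9 ± 3.21 FPKM (SD, n = 3 each; limma adjusted p = 0.0195 and 0.0385), and without sgControl replicate 1 the latter was not called (0.0750). COX6C lost its call under TPM scaling and without sgControl or sgPLOD2 replicate 3. Of 15 nuclear complex V subunits, 3 fell and 0 rose (median -0.08). ATP5ME fell from 47.4 ± 4.02 to 27.8 ± 3.43 FPKM and ATP5MC1, a gene of the rotor ring, from 33.0 ± 3.61 to 22.3 ± 1.11 FPKM (limma adjusted p = 0.00160 and 0.00389). Complex II has no mitochondrially encoded subunit. Of its 4 genes 1 rose, the membrane anchor SDHD, from 11.7 ± 0.59 to 18.7 ± 1.88 FPKM (limma adjusted p = 0.00173). SDHA, the flavoprotein, had 33.0 ± 3.59 and 29.4 ± 1.54 FPKM (limma adjusted p = 0.224, or 0.0360 without sgControl replicate 1). Shares over all genes were 23.5% lower and 29.5% higher, and no test compared these lists with each other.

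**Figure D5:**
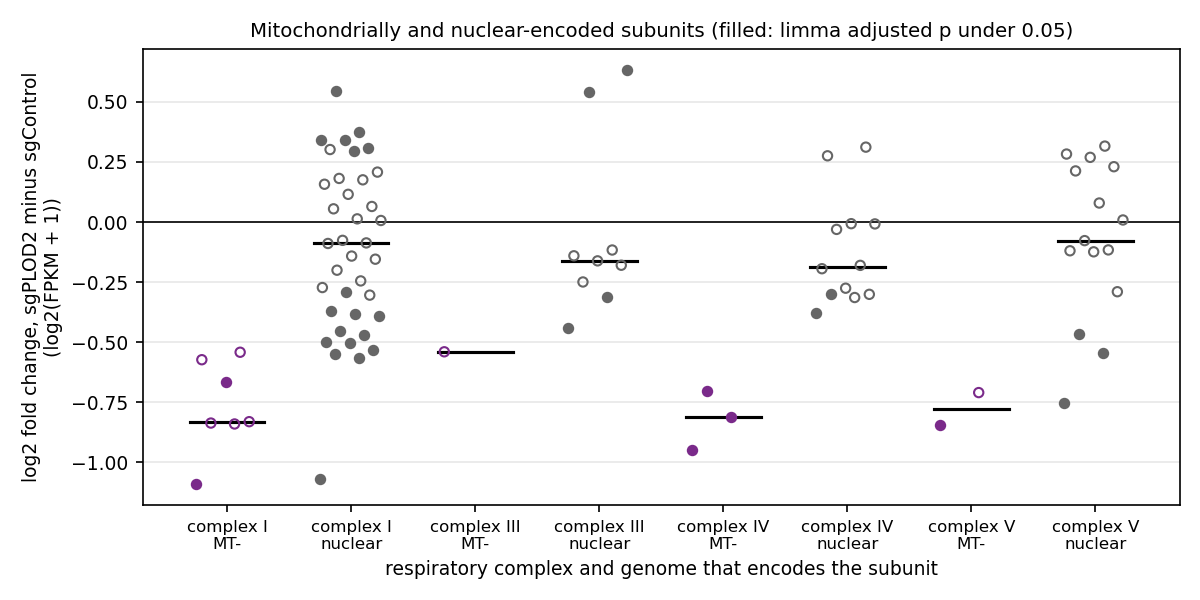
Log2 fold change (sgPLOD2 minus sgControl on log2(FPKM + 1)) of the subunits of 4 respiratory complexes, split by whether mitochondrial (MT-) or nuclear DNA encodes them; each point is a gene, filled where limma called it, and black lines are medians. All MT- points lie below -0.5 in this fit of all 6 libraries, whereas nuclear points spread to both sides of 0 with medians from -0.19 to -0.08. Without sgControl replicate 1, not drawn here, MT- genes lie nearer to 0.

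Among factors that copy, transcribe, cut and protect mitochondrial RNA, some genes fell and some rose. Over all genes 23.5% fell and 29.5% rose, and the lists that follow, of 7 to 19 tested genes, gave from 0% to 31.6% lower and from 12.5% to 37.5% higher. Of 7 tested transcription factors and partners, 1 fell and 1 rose. The polymerase gene POLRMT fell from 38.3 ± 1.73 to 27.0 ± 1.44 FPKM (SD, n = 3 each; limma adjusted p = 0.00229), with all sgPLOD2 libraries below the controls in FPKM. TFAM, which binds and bends the promoters and packages the DNA, rose from 4.82 ± 0.64 to 7.07 ± 0.90 FPKM (limma adjusted p = 0.0162, up to 0.0585 in an alternative). TFB2M, which opens the promoter, had 11.2 ± 0.029 and 11.5 ± 1.44 FPKM and was not called (limma adjusted p = 0.836).

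Of 16 genes for RNA stability and decay, 2 fell and 6 rose. LRPPRC, which binds mitochondrial mRNAs and keeps them stable and polyadenylated, rose from 4.63 ± 0.80 to 9.18 ± 0.60 FPKM (SD, n = 3 each; limma adjusted p = 0.00126). Its partner SLIRP had 7.88 ± 1.25 and 9.92 ± 1.11 FPKM (limma adjusted p = 0.0922, or 0.0388 without sgControl replicate 1). PDE12, which removes poly(A) tails, rose from 1.54 ± 0.17 to 3.80 ± 0.30 FPKM (limma adjusted p = 0.000333). Of 19 RNA processing and modification genes, 6 fell and 5 rose. The pseudouridine synthase gene PUS1 fell from 7.12 ± 0.59 to 4.62 ± 0.088 FPKM, and PTCD3, a protein of the small mitochondrial ribosomal subunit, rose from 2.43 ± 0.24 to 3.87 ± 0.066 FPKM (limma adjusted p = 0.00249 and 0.00285).

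Of 18 genes for DNA replication and the nucleoid, 5 fell and 6 rose. ATAD3A, a membrane ATPase tied to nucleoids, fell from 126 ± 5.15 to 67.8 ± 3.09 FPKM and the matrix protease gene LONP1 from 49.1 ± 1.83 to 30.8 ± 1.66 FPKM (SD, n = 3 each; limma adjusted p = 0.000177 and 0.000655). The DNA polymerase gene POLG had 10.2 ± 1.89 and 9.83 ± 0.77 FPKM and the helicase gene TWNK 4.56 ± 1.63 and 3.41 ± 0.061 FPKM, neither called (limma adjusted p = 0.869 and 0.225). Of 8 tested nuclear regulators of mitochondrial biogenesis, 0 fell and 1 rose, the NRF2 alpha subunit gene GABPA, from 1.09 ± 0.34 to 1.72 ± 0.022 FPKM (limma adjusted p = 0.0335), a call lost under 7 alternatives. NRF1 had 5.71 ± 1.52 and 6.80 ± 0.33 FPKM and YY1 7.08 ± 0.21 and 8.49 ± 1.73 FPKM, neither called (limma adjusted p = 0.269 and 0.206). The coactivator genes PPARGC1A and PPARGC1B averaged at most 0.00265 and 0.519 FPKM in either group and were below the filter. MYC had 9.98, 0.776 and 0.742 FPKM in sgControl, with the high value again in replicate 1, and 12.5, 1.01 and 24.4 FPKM in sgPLOD2. The groups overlapped and MYC was not called (limma adjusted p = 0.283). Of the nuclear genes named here and tested, COX4I1 lost and SLIRP and SDHA gained a call without sgControl replicate 1, and no other one changed.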

How the data were processed

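RNA of 3 sgControl and 3 sgPLOD2 libraries was measured. Per the submitters' processing notes, which give no roles or order, CASAVA, HISAT2 2.1.0 and StringTie 1.3.4 were used with GRCh38. The sources used here do not give the counting tool, strand setting or RNA selection. The deposited table gives FPKM per gene and library. Per the file headers, it also holds the authors' comparison, with a mean normalized count per gene (a signal that is not split by library), log2 fold changes with a test score, p-values and adjusted p-values.

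Start and end of all 37 genes matched GENCODE release 29. The 10469 genes that averaged 1 FPKM or more were tested on log2(FPKM + 1), a scale that understates changes of low genes, with limma 3.58.1 (R 4.3.3), its trend option and Benjamini-Hochberg adjustment at 0.05. The ratios that were tested used 2-sided exact permutation tests (scipy 1.17.1). The table holds no counts per library, so the depth of each library is unknown. The authors' mean normalized counts summed to 1.116e+08 over all genes. Data were simulated for this comparison over 10469 genes, with noise drawn for each gene independently. Log2 changes of 0.5, 1 and 2 were given to 67, 67 and 66 genes and recovered in 35.8%, 82.1% and 100.0% of them. Of the genes called, 1.36% had been given no change. In the real data more genes were called, and sgControl replicate 1 held most MT- genes high together. The simulated rates may therefore not hold for MT- genes. Members and lists were chosen with earlier results of these data known. Named were all 37 members, the 2 smallest adjusted p per nuclear list with 11 fixed regulators, and nuclear copies from 1 FPKM. Alternatives were other scalings, pseudocounts, filters, variance options, a replicate block and each library left out.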

Additional observations from a re-analysis of the deposited data

How the results depend on the processing

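The call counts rested on the filter and on single libraries. Of the 37 genes, 17 fell as reported (45.9%, against 23.5% of all genes), 3 with no filter on low values (8.11%, against 10.1% of all genes) and from 5 to 24 when 1 library was left out (13.5% to 64.9%, against 18.3% to 24.6% of all genes). The count of MT- genes that rose was 0 as reported, 1 under TPM, 3 under quantile normalization, 1 with the replicate block, from 0 to 2 with 1 library left out, and 2 without sgControl replicate 1 on the same total of other genes. That last combination was chosen after seeing the data. Over all genes, 3084 rose as reported and 1361 at a minimum of 5 FPKM, where 5689 genes were tested. The replicate numbers did not pair the libraries (correlations of same-numbered deviations 0.0135, 0.135 and -0.0491), and with the replicate block 13 MT- genes fell.

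Signs of log2 fold changes turned for genes near 0, and the cause was not tested. With 1 library left out, values ran from -0.017 to 0.448 for MT-RNR2, from -0.109 to 0.032 for MT-TA, from -0.123 to 0.0088 for MT-TN, from -0.031 to 0.127 for TFB2M and from -0.178 to 0.059 for POLG. Under TPM, MT-TA was at 0.072, MT-TN at 0.059 and POLG at 0.096. Quantile normalization gave 0.114, 0.207 and 0.120 for MT-TA, MT-TN and MT-TC. On the same total of other genes, MT-TA was at 0.028, MT-TN at 0.015 and POLG at 0.049. The combination above gave 0.037, 0.113, 0.090 and 0.017 for MT-TF, MT-TA, MT-TN and MT-TC, and median-of-ratios scaling -0.033 for TFB2M. With 3 libraries a group and no counts, small changes could not be resolved.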
